A study of Homo sapiens with 8 samples.

Results

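NFAT5, the tonicity-responsive member of the NFAT transcription factors, and 9 genes known as its targets under hypertonicity were followed in MDA-MB-157 cells kept at low or high glucose. The 10 genes were taken by symbol from a written list: NFAT5, AKR1B1, SORD, SLC5A3, SLC6A6, SLC6A12, SLC38A2, HSPA4L, S100A4 and SGK1. Of these, 9 had a row among the 21059 genes of the deposited table, and SLC6A12 (the betaine and GABA transporter BGT1) was not analysed here. MDA-MB-157 is an established, estrogen receptor negative human breast cancer cell line. Low glucose cells (4 libraries) were held at 5 mM glucose and high glucose cells (4 libraries) at 25 mM for 48 h before RNA was isolated for sequencing. Per the study's methods the cells of both groups were first conditioned in low glucose and then kept in serum-free medium. The methods also use mannitol as an osmotic control in other experiments. There the paper reports that adding it made no difference to the phenotypes examined. No mannitol library was among these 8, so added glucose and added osmolarity cannot be told apart in what follows. Nothing in the labels says whether the 4 replicates of a group came from separate cultures, and p-values then measure only the spread between these libraries, which may be technical.

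When the medium around a cell becomes hypertonic, water leaves and the salt inside is concentrated. Cells then exchange that salt for organic osmolytes, small neutral molecules such as sorbitol, myo-inositol, taurine, betaine and glutamine. NFAT5 enters the nucleus, binds a DNA element called the tonicity-responsive enhancer, and raises transcription of the enzymes and transporters that supply these osmolytes and of chaperones that protect proteins. AKR1B1 makes sorbitol from glucose, so in high glucose the same enzyme is also the first step of the polyol pathway. The level of NFAT5 mRNA is not a measure of the activity of the protein, which is set largely by its location and modification.

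The values are in CPM, reads of a gene scaled to the size of its library, which the authors adjusted between libraries by the trimmed mean of M values (TMM). Depth estimated from the value of 1 read was about 9721650 to 12482500 reads a library, so that 1 read was worth 0.0706 to 0.0889 CPM. The library of high glucose replicate 1 stood apart from the other 3 of its group by transcript length. Among genes of at least 5 CPM its median log2 level was 0.29 above theirs for transcripts under 1000 bases and 0.29 below theirs for transcripts of 8000 bases or more, while the low glucose libraries lay between -0.03 and 0.03 of their group in every length class. The log2 change of each of the 9 genes is given with and without that library, and so are the list counts where they differ. The line was as its label says for the estrogen receptor (ESR1 at 0 to 0.170 CPM), while the other hormone receptor marker, PGR, was at 4.33 to 5.95 CPM. VIM was at 2856 to 4116 CPM and KRT18 at 156 to 238 CPM. The epithelial markers CDH1 and KRT19 reached no more than 1.41 and 0.0825 CPM. Of the other epithelial markers, EPCAM was at 3.93 to 7.62 CPM and KRT8 at 76.4 to 138 CPM. Of 2 leukocyte markers measured, PTPRC reached at most 0.178 CPM and CD68 was at 9.38 to 14.3 CPM. In a bulk library a change in the mix of cells and a change of RNA per cell cannot be told apart.

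At high glucose 6 of the 9 measured genes rose, none fell (limma; 0 also at an unadjusted p under 0.05), and 3 did not pass the test. NFAT5 itself, the 3 osmolyte transporters SLC5A3, SLC6A6 and SLC38A2, the chaperone HSPA4L and the kinase SGK1 rose, whereas both enzymes of the polyol pathway, AKR1B1 and SORD, and the calcium-binding protein S100A4 did not pass. The largest rise was in HSPA4L, at 2.96 times its low glucose mean, followed by SGK1 at 2.36 times. The test was limma on log2(CPM + 1), fitted to all 21059 genes with Benjamini-Hochberg adjustment over all of them and a threshold of 0.05. By it 46.8% of all genes were called, 22.0% as higher and 24.8% as lower, so a call by itself was common in this comparison. All 9 genes had a mean of at least 5 CPM, and among the 11297 genes at that level 33.6% were called higher. A rise past 1 on the log2 scale was less common: 4 of the 9 genes (SLC6A6, SLC38A2, HSPA4L and SGK1) had one, against 3.28% of genes of at least 5 CPM. The 4 high glucose libraries all lay above the 4 low glucose libraries for the 6 genes that rose, which held for 32.5% of genes of at least 5 CPM. The median log2 change was 0.72 over the 9 genes and -0.01 over all genes tested. The same number, 6, rose when high glucose replicate 1 was left out, beside 22.8% of all genes. The list was chosen with earlier results of these data known, so its shares beside those of all genes are a description.

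**Figure D1:**
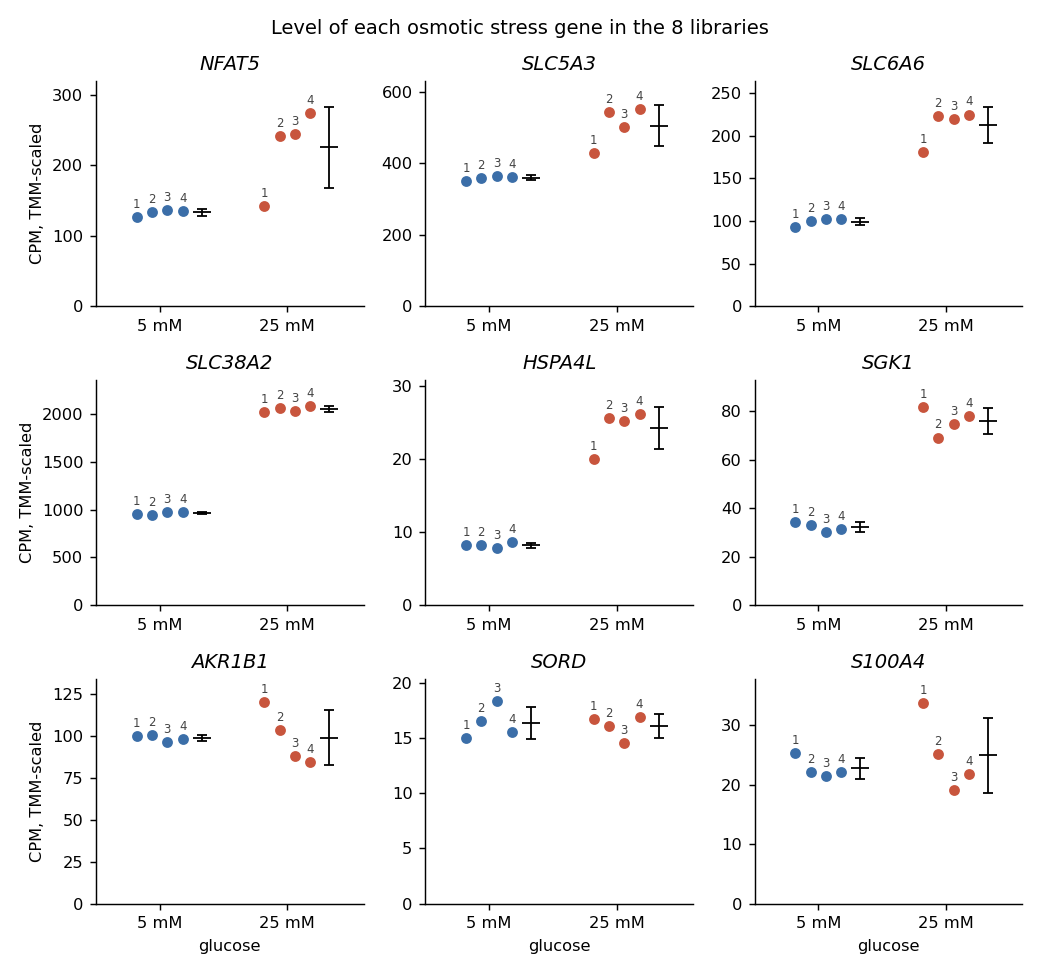
Level of each gene in TMM-scaled CPM (y axis, from 0) in the 4 low glucose (5 mM, blue) and 4 high glucose (25 mM, red) libraries. Points are libraries numbered by replicate and bars are the mean ± SD of 4; the groups are apart for NFAT5, SLC5A3, SLC6A6, SLC38A2, HSPA4L and SGK1, and high glucose replicate 1 lies at 143 CPM for NFAT5 while the other 3 lie between 241 and 273 CPM.

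NFAT5 (chromosome 16, 69565966 to 69704654, RefSeq GRCh38.p14) is the transcription factor of the group. Its level in the low glucose libraries was 127, 134, 136 and 136 CPM. In the high glucose libraries it was 143, 241, 244 and 273 CPM. The groups did not overlap, but high glucose replicate 1 lay close to the low glucose libraries and far under the other 3. The mean went from 132.9 ± 4.32 CPM to 225 ± 57.1 CPM (SD, n = 4 each), and the log2 change was 0.72 ± 0.19 (SE), with an adjusted p of 0.0197 (limma). Without high glucose replicate 1 the log2 change was 0.92 ± 0.05 (SE) and the adjusted p 3.64e-05. The call ended when low glucose replicate 1 (adjusted p = 0.0512), high glucose replicate 2 (0.0533) or high glucose replicate 3 (0.0536) was left out, with log2 changes of 0.69, 0.67 and 0.66.

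NFAT5 has the longest transcript of the 9 genes (13289 bases, GENCODE canonical transcript), and in high glucose replicate 1 its log2 level was 0.82 below the mean of the other 3, further than the median of 0.29 below for transcripts of 8000 bases or more. Each library's trend on transcript length within its own glucose group was also removed, a choice made after the data were seen. This step leaves every group mean, and so every log2 change, as it was (0.72 for NFAT5). Only the spread within a group can change, and the adjusted p was then 9.66e-05 (limma). That p does not count the fitted trend and is somewhat too small. Reads of NFAT5 may also belong to ENSG00000260772, an overlapping gene on the same strand, and 12.8% of the 31-base words of the NFAT5 transcript occur in another gene's transcript. ENSG00000260772 rose as well, from 17.6 ± 2.0 to 32.8 ± 4.37 CPM (log2 change 0.86, adjusted p = 6.92e-04, limma).

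**Figure D2:**
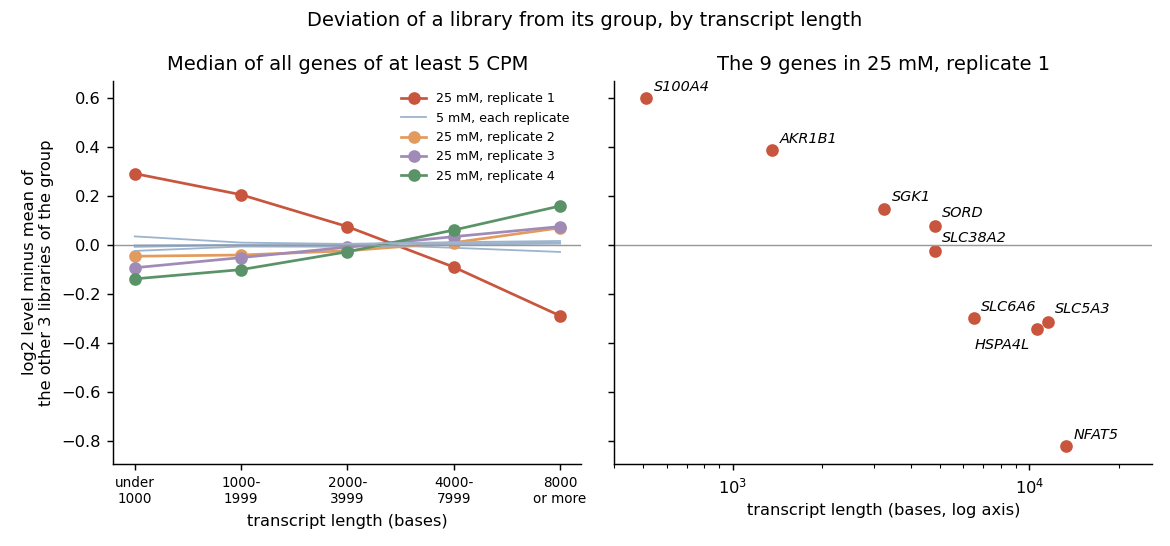
Left, median over all genes of at least 5 CPM of a library's log2 level minus the mean of the other 3 libraries of its group (y axis), by transcript length in bases (x axis); red, orange, purple and green are high glucose replicates 1 to 4 and thin blue lines the low glucose libraries. Right, the same difference for each of the 9 genes in high glucose replicate 1 against transcript length on a log axis; it goes from 0.60 for S100A4, the shortest, to -0.82 for NFAT5, the longest.

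Across the 9 genes, the deviation of high glucose replicate 1 was positive for the shorter transcripts and negative for the longer ones. It was above its group for S100A4 (513 bases, 0.60), AKR1B1 (1361 bases, 0.39) and SGK1 (3245 bases, 0.15). It was close to its group for SLC38A2 (4795 bases, -0.03) and SORD (4818 bases, 0.08). It was below its group for SLC6A6 (6504 bases, -0.30), HSPA4L (10608 bases, -0.34), SLC5A3 (11566 bases, -0.31) and NFAT5. The median log2 difference between glucose groups also varied with length over all genes of at least 5 CPM. It was -0.14 under 1000 bases, -0.08 and 0.01 in the next classes, 0.04 from 4000 bases and 0.02 from 8000 bases. Without high glucose replicate 1 it rose with length in every class, from -0.22 through -0.13, -0.01 and 0.06 to 0.09. What part the length trend has in any single gene's value was not tested.

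The transporters take osmolytes into the cell. SLC38A2 (chromosome 12, 46358188 to 46372773), the sodium-coupled neutral amino acid transporter SNAT2 that carries glutamine and alanine, was at 957, 950, 978 and 980 CPM in low glucose. In high glucose it was at 2031, 2072, 2040 and 2092 CPM. Every high glucose library had over 2 times the level of every low glucose library, and neither group varied by more than 1.58% (coefficient of variation). The log2 change was 1.09 ± 0.03 (SE; adjusted p = 1.56e-06, limma; 1.097 ± 0.02 without high glucose replicate 1), and 2.43% of genes of at least 5 CPM had a larger rise.

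SLC6A6 (chromosome 3, 14402576 to 14489349), the taurine transporter, was at 92.8, 100.1, 102 and 102 CPM in low glucose. It was at 180, 223, 219 and 225 CPM in high glucose. Replicate 1 gave the lowest of the high glucose values, yet one well above every low glucose library. The mean went from 99.3 ± 4.47 to 212 ± 21.0 CPM (SD, n = 4 each), a log2 change of 1.08 ± 0.08 (SE; adjusted p = 3.43e-05, limma), and without high glucose replicate 1 it was 1.16 ± 0.04.

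SLC5A3 (chromosome 21, 34073578 to 34106260), the sodium/myo-inositol cotransporter SMIT1, was at 350, 360, 366 and 363 CPM in low glucose. In high glucose it was at 428, 543, 501 and 552 CPM. It had the smallest change of the 6 genes that rose, and replicate 1 again gave the lowest high glucose value. The mean went from 360 ± 6.77 to 506 ± 56.7 CPM, a log2 change of 0.48 ± 0.08 (SE; adjusted p = 0.00206, limma), and without high glucose replicate 1 it was 0.56 ± 0.04. SLC5A3 lies on the same strand as MRPS6, a mitochondrial ribosomal protein gene with which it shares exon positions and 1.64% of its 31-base words. MRPS6 had a mean of 154 ± 4.19 CPM in low and 169 ± 15.6 CPM in high glucose (log2 change 0.13, adjusted p = 0.138, limma).

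HSPA4L (chromosome 4, 127781796 to 127840733), an HSP110-type chaperone also called osmotic stress protein 94, had the lowest level per transcript length of the genes that rose. Its level was 8.17, 8.20, 7.79 and 8.60 CPM in low glucose. It was 20.0, 25.6, 25.1 and 26.1 CPM in high glucose. The low glucose libraries lay within 1 CPM of each other and all 4 high glucose libraries were over 2 times as high, with replicate 1 the lowest. The mean went from 8.19 ± 0.328 to 24.2 ± 2.84 CPM, a log2 change of 1.45 ± 0.09 (SE; adjusted p = 1.63e-05, limma) that 0.797% of genes of at least 5 CPM exceeded. Without high glucose replicate 1 the change was 1.54 ± 0.04. At its lowest the gene was covered by about 92 reads in a library, where counting error alone is 10.4%.

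RefSeq (GRCh38.p14) gave promoter windows, 250 bases before to 50 after a start, for 6 of the 10 genes: AKR1B1 (2 starts), SLC5A3 (1), SLC38A2 (1), HSPA4L (3), S100A4 (1) and SGK1 (3). Matches to the tonicity-responsive enhancer, whose core is TGGAAA, were sought on both strands. The core also holds GGAAA, the letters shared by sites of all NFAT factors. The whole element matched 2 of the 11 windows, against 4.92% of all 35116 windows in the table, and the core matched 3 of 11, against 20.7%. Positions are counted from the start, with 1 the first base of the transcript and -1 the base before it. The third HSPA4L start had 2 overlapping matches, one on the gene's strand from -17 to -7 and one on the opposite strand from -12 to -2. The SLC38A2 match was on the opposite strand, from 28 to 38. Both sequences are shown with the matched bases in capitals, since these 2 genes rose and hold the element, and a match of letters is a description and not evidence of binding.
HSPA4L, start 3, chr4:127783273-127783522, plus strand, bases -250 to -1: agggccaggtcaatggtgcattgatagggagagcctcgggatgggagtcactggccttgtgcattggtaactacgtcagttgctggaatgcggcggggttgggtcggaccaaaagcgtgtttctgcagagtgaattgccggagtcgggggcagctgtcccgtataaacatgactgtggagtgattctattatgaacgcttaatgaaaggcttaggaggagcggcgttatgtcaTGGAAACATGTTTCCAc
SLC38A2, chr12:46372726-46372755, minus strand, bases 19 to 48: cgccttagaACGCCTTTCCAgtactgctag

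The second HSPA4L window held the core alone, from -181 to -176 on the opposite strand. The windows of SLC5A3 and SGK1, which also rose, and of AKR1B1 and S100A4, which did not pass, held neither the core nor the whole element. The shorter GGAAA was in 8 of the 11 windows, beside 61.2% of all windows. An enhancer outside these 300 bases would not be seen in them.

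SGK1 (chromosome 6, 134169256 to 134318112), the serum and glucocorticoid regulated kinase that acts on ion channels and transporters in cell volume control, was at 34.4, 32.9, 30.0 and 31.4 CPM in low glucose. It was at 81.9, 69.1, 74.6 and 78.0 CPM in high glucose. The groups were far apart, and here replicate 1 was the highest of both groups. The log2 change was 1.21 ± 0.06 (SE; adjusted p = 8.67e-06, limma), and 1.18 ± 0.06 without high glucose replicate 1.

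The enzymes of the polyol pathway, by contrast, gave no call. AKR1B1 (aldose reductase; chromosome 7, 134442350 to 134459239) was at 99.9, 100.5, 96.2 and 98.4 CPM in low glucose. It was at 120, 104, 88.2 and 84.2 CPM in high glucose. The high glucose libraries lay on both sides of the low glucose ones, and their SD was 16.4 CPM against 1.94 CPM. The log2 change was -0.01, with a 95% interval of -0.27 to 0.25 and an adjusted p of 0.993 (limma). Without high glucose replicate 1 it was -0.11 (interval -0.28 to 0.07). The interval from all 8 libraries leaves room for a change of either sign. Its upper bound is below the lower bound of SLC6A6 (0.90), SLC38A2 (1.01), HSPA4L (1.25) and SGK1 (1.07). It is also below that of SLC5A3 (0.30), but this depended on the fit. The bounds of AKR1B1 and SLC5A3 stayed apart without high glucose replicate 1, and crossed when any other single library was left out. Without low glucose replicate 1, for example, they were 0.304 and 0.246. With the GC trend removed they crossed too (0.292 and 0.258). The transcript shares 20.6% of its 31-base words with other genes, mostly its pseudogenes, so that its count is uncertain.

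SORD (sorbitol dehydrogenase, which turns sorbitol into fructose; chromosome 15, 45023195 to 45077185) was at 15.0, 16.5, 18.3 and 15.6 CPM in low glucose. In high glucose it was at 16.7, 16.1, 14.5 and 16.9 CPM. The groups overlapped throughout, with a log2 change of -0.02 (95% interval -0.20 to 0.15; adjusted p = 0.856, limma) that was -0.04 without high glucose replicate 1. Its reads could be split with SORD2P, a pseudogene copy, since 39.01% of its 31-base words occur in other transcripts. SORD2P itself had 4.71 ± 0.581 and 3.82 ± 0.783 CPM (log2 change -0.25, adjusted p = 0.192, limma).

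S100A4 (chromosome 1, 153543621 to 153545806), a small calcium-binding protein known from metastasis, was at 25.3, 22.1, 21.5 and 22.1 CPM in low glucose. In high glucose it was at 33.6, 25.1, 19.1 and 21.8 CPM. Replicate 1 was the highest library in both groups, and the remaining libraries overlapped. The log2 change was 0.10 (95% interval -0.29 to 0.48; adjusted p = 0.680, limma), and it turned to -0.05 without high glucose replicate 1.

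**Figure D3:**
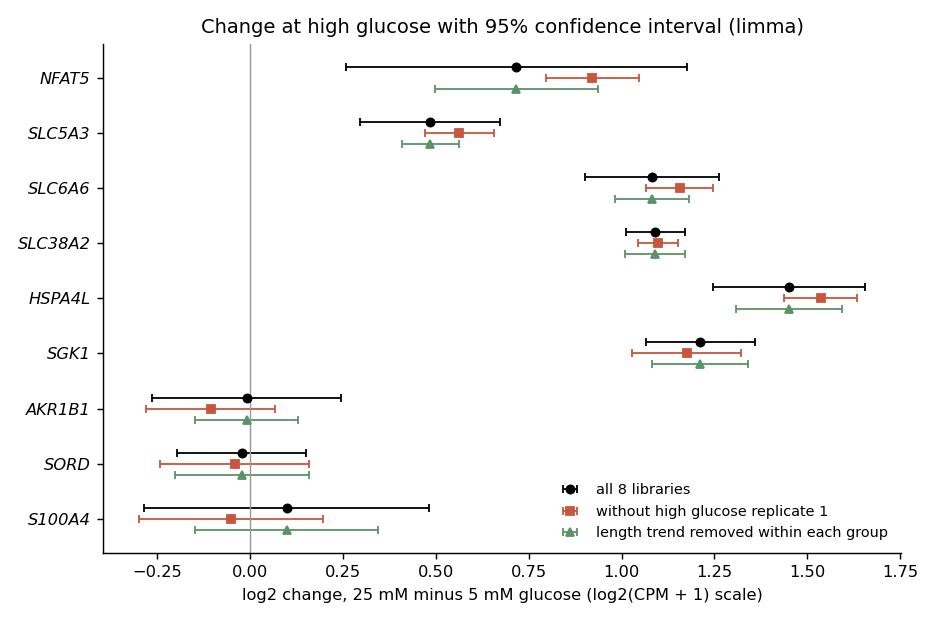
Log2 change of each gene, high minus low glucose on the log2(CPM + 1) scale (x axis), with its 95% confidence interval from limma, for all 8 libraries (black circles), without high glucose replicate 1 (red squares) and with the length trend within each group removed (green triangles). The intervals of NFAT5, SLC5A3, SLC6A6, SLC38A2, HSPA4L and SGK1 lie above 0 in all 3 fits, and those of AKR1B1, SORD and S100A4 hold 0. Removing the length trend within each group cannot move a log2 change, so the triangles differ from the circles only in their intervals.

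Levels of different genes were compared per 1000 bases of transcript. In low glucose the order was SLC38A2 (201 CPM per 1000 bases), AKR1B1 (72.5), S100A4 (44.4), SLC5A3 (31.1), SLC6A6 (15.3), NFAT5 (10.0), SGK1 (9.91), SORD (3.39) and HSPA4L (0.772). NFAT5 and SGK1 did not differ beyond their spread in low glucose (SD 0.325 and 0.589); the libraries of all other neighbours in this order did not overlap. In high glucose SLC38A2 was at 429 ± 5.91 and AKR1B1 at 72.7 ± 12.02 CPM per 1000 bases, and S100A4 (48.5 ± 12.3) overlapped both AKR1B1 and SLC5A3 (43.7 ± 4.90). SLC6A6 followed at 32.6 ± 3.24. SGK1 (23.4 ± 1.67) then stood above NFAT5 (17.0 ± 4.29), with no overlap of their libraries. SORD and HSPA4L remained the lowest, at 3.33 ± 0.225 and 2.28 ± 0.268. The order depends on the transcript chosen for the length and is a description.

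**Figure D4:**
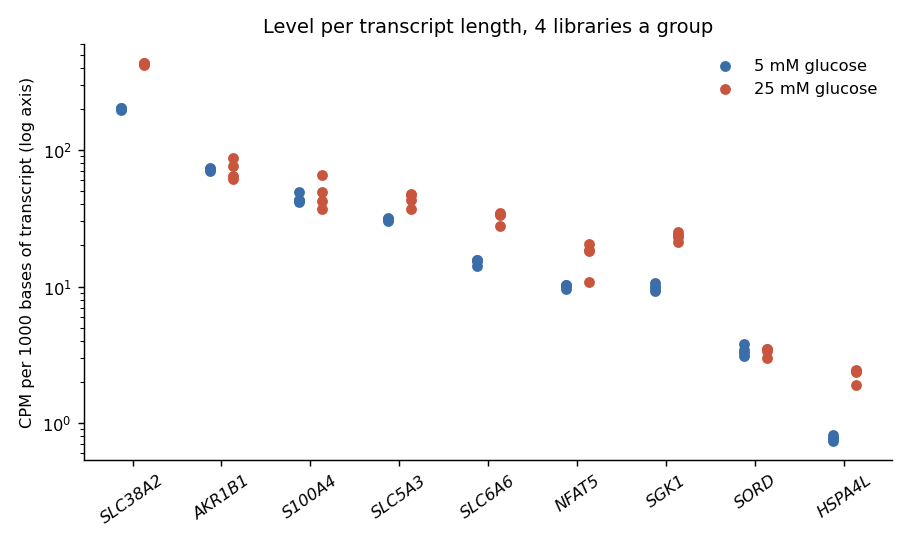
Level of each gene in CPM per 1000 bases of its canonical transcript (y axis, log scale) in the 4 low glucose (blue) and 4 high glucose (red) libraries, genes ordered by their low glucose mean. SLC38A2 is highest in every library, and SGK1 and NFAT5 share one level in low glucose but not in high glucose.

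The genes whose levels followed NFAT5 most closely over the 8 libraries were FOXN3 (Pearson r = 0.999), HELZ (0.997), TASOR2 (0.997), HIVEP1 (0.997) and MED1 (0.996), out of 11296 other genes of at least 5 CPM. All 5 have transcripts of 8021 to 13817 bases, and each had high glucose replicate 1 near its low glucose libraries. HELZ, for example, was at 134 to 142 CPM in low glucose, at 151 CPM in high glucose replicate 1 and at 217 to 241 CPM in the other 3. The correlation therefore takes in both the difference between glucose groups and the position of high glucose replicate 1. What part transcript length has in it was not tested. Among the other listed genes r with NFAT5 was 0.97 for SLC5A3, 0.90 for SLC6A6, 0.89 for HSPA4L, 0.82 for SLC38A2 and 0.76 for SGK1. It was -0.17 for SORD, -0.32 for S100A4 and -0.55 for AKR1B1. By this r SLC5A3 stood at rank 147 of 11296 genes, SLC6A6 at 713, HSPA4L at 858, SLC38A2 at 1645 and SGK1 at 2387. Many genes outside the list thus followed NFAT5 more closely.

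Around these genes, 10 wider lists of osmolyte, chaperone, kinase and volume control genes held 110 further genes, 104 of them in the table. Of the 104, 45 rose, 22 fell and 37 did not pass. Thus 43.3% rose against 22.0% of all genes, and 21.2% fell against 24.8%. The lists were chosen with earlier results of these data known, so these shares describe the lists and are not independent of the data. Leaving out high glucose replicate 1, 44 rose and 23 fell. The median log2 change was 0.13, against -0.01 over all genes. Among the 71 with at least 5 CPM, 39 rose (54.9%) and 19 fell (26.8%), beside 33.6% and 33.3% of all genes at that level.

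**Figure D5:**
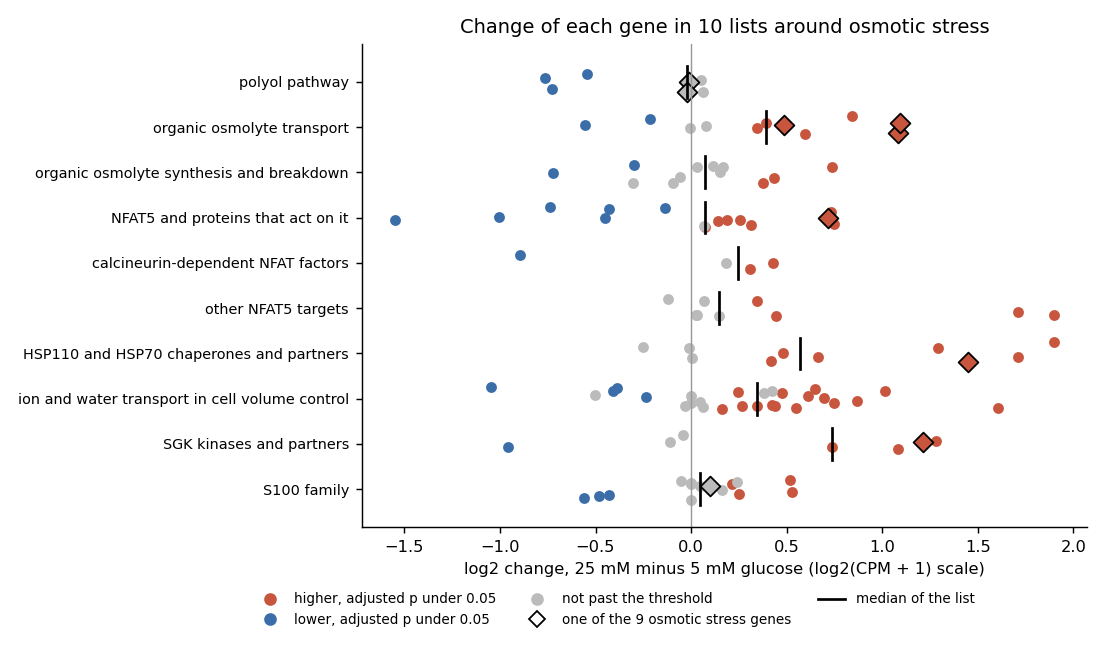
Log2 change of each gene of the 10 lists, high minus low glucose on the log2(CPM + 1) scale (x axis); circles are genes, diamonds the 9 osmotic stress genes, red and blue an adjusted p under 0.05 for a rise and a fall, grey neither, and black bars the median of a list. The highest list median is that of the SGK kinases and partners (0.74) and the lowest that of the polyol pathway (-0.02).

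Of 11 measured genes of organic osmolyte transport, 7 rose, 2 fell and 2 did not pass. Over all genes 22.0% were called higher and 24.8% lower, and over genes of at least 5 CPM 33.6% and 33.3%. Beside the 3 transporters above, SLC2A13, the proton/myo-inositol transporter, rose from 7.65 ± 0.542 to 14.5 ± 1.65 CPM (log2 change 0.84), and SLC38A1, the related glutamine transporter SNAT1, from 319 ± 6.51 to 485 ± 44.6 CPM (0.60). SLC44A2, a choline transporter-like protein, fell from 103.6 ± 2.04 to 70.2 ± 3.39 CPM (-0.56), and the other that fell was SLC44A1 (-0.21). Among 12 measured genes that make or break down osmolytes, 3 rose, 2 fell and 7 did not pass (2, 2 and 8 without high glucose replicate 1). That is 41.7% called, near the 46.8% of all genes. IMPA1, which frees myo-inositol from its phosphate, rose (0.74, from 32.7 ± 1.52 to 55.2 ± 1.39 CPM), as did IMPA2 (0.43; 0.31 with an adjusted p of 0.0566 without high glucose replicate 1) and ADO (0.38), which oxidises cysteamine on the way to taurine. ALDH7A1, an aldehyde dehydrogenase that makes betaine, fell (-0.72), as did GDPD5 (-0.30).

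No gene of the polyol pathway list rose (limma, and 0 also at an unadjusted p under 0.05). Of this list 42.9% were called, near the 46.8% of all genes, and those called were all lower. The shares of all genes were 22.0% called higher and 24.8% lower. Of its 7 genes, 3 fell and 4 did not pass, with AKR1B1 and SORD among the 4. AKR1A1, the related aldehyde reductase, went from 52.9 ± 1.40 to 30.9 ± 4.11 CPM (log2 change -0.77). TKFC, a kinase of fructose breakdown, went from 19.3 ± 1.27 to 11.3 ± 1.51 CPM (-0.73). AKR1B10 went from 0.942 ± 0.138 to 0.336 ± 0.152 CPM (-0.54), near the worth of 3 reads in high glucose. KHK, fructokinase, was at 2.29 ± 0.735 and 2.35 ± 0.371 CPM (log2 change 0.05, adjusted p = 0.865, limma).

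Of 10 genes of the HSP110 and HSP70 chaperones and partners, HSPA4L included, 7 rose, none fell (limma, and 0 also at an unadjusted p under 0.05) and 3 did not pass (HSPA1L, HSPB1 and CRYAB). Of all genes 22.0% were called higher and 24.8% lower, and of genes of at least 5 CPM 33.6% and 33.3%. HSPH1, the stress-inducible HSP110, rose from 81.1 ± 3.58 to 199.9 ± 9.47 CPM (log2 change 1.29), DNAJB1, an HSP70 cochaperone, from 169 ± 3.02 to 268 ± 10.1 CPM (0.66), and HSPA4, the closest relative of HSPA4L, from 183 ± 5.33 to 255 ± 7.61 CPM (0.48). HSPA1A and HSPA1B, the inducible HSP70 genes, rose by 1.90 and 1.71 on the log2 scale; 76.9% and 74.5% of their 31-base words occur in other transcripts, mostly each other's, so their split is uncertain. They also stand in the list of 9 other NFAT5 targets measured, where 4 rose, none fell (0 also at an unadjusted p under 0.05, limma) and 5 did not pass. The other 2 that rose there were VEGFC, a lymphatic growth factor (0.44), and AQP1, a water channel at 0.612 and 1.05 CPM (0.35).

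Of a list of 15 genes for NFAT5 and proteins that act on it, NFAT5 included, 8 rose, 6 fell and 1 (XPO1) did not pass, beside 33.6% called higher and 33.3% lower among all genes of at least 5 CPM. XPO1 passed too, and 9 rose, without high glucose replicate 1. The smallest change called in all 8 libraries was in FYN, a Src family kinase, at 0.07 (adjusted p = 0.0432, limma). MAP2K6, a kinase upstream of p38, fell from 42.1 ± 1.75 to 13.7 ± 1.36 CPM (log2 change -1.55), while MAP2K3, another kinase upstream of p38, rose from 24.3 ± 2.23 to 41.7 ± 6.04 CPM (0.75). CDK5, a kinase, fell from 32.0 ± 1.51 to 15.5 ± 1.76 CPM (-1.0), and the chaperone HSP90AA1 rose from 2147 ± 33.8 to 3562 ± 137 CPM (0.73). AKAP13, also called BRX, a guanine nucleotide exchange factor upstream of NFAT5, fell (-0.43, and -0.31 without high glucose replicate 1). Of the 4 NFAT factors that calcineurin controls, NFATC2 (0.43) and NFATC3 (0.31) rose, and NFATC1 did not pass (0.18, adjusted p = 0.231, limma). NFATC4 fell (-0.90, from 1.26 to 0.202 CPM), with a high glucose mean below the worth of 3 reads.

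In cell volume control, 15 of 27 genes of ion and water transport and its control rose, 4 fell and 8 did not pass. The shares over all genes were 22.0% called higher and 24.8% lower, and over genes of at least 5 CPM 33.6% and 33.3%. When high glucose replicate 1 was left out, 14 rose and 5 fell: WNK4 and LRRC8C no longer passed, and WNK1 (higher) and AQP11 (lower) did. ATP1B3, a beta subunit of the sodium pump, rose from 177 ± 2.63 to 544 ± 61.2 CPM (log2 change 1.61), and so did TSC22D2 (0.61), a gene of the TSC22 family. LRRC8A, the obligatory subunit of the volume-regulated anion channel, rose from 52.6 ± 1.82 to 88.9 ± 4.40 CPM (0.75), and the kinase OXSR1, which acts on cation-chloride cotransporters, rose by 0.65. The 4 that fell were TSC22D3 (-1.05), TSC22D1 (-0.41), SLC12A7 (-0.39) and SLC12A4 (-0.23), the last pair being potassium-chloride cotransporters. WNK1 had a log2 change of 0.38 with an adjusted p of 0.0941, and of 0.55 with 6.53e-04 without high glucose replicate 1 (limma).

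Of 7 SGK kinases and partners, 4 rose, 1 fell and 2 did not pass, beside 22.0% of all genes called higher and 24.8% lower. Among genes of at least 5 CPM these shares were 33.6% and 33.3%. NEDD4L, a ubiquitin ligase that SGK1 phosphorylates, rose from 3.99 ± 0.123 to 11.1 ± 0.512 CPM (log2 change 1.28), NDRG1, an SGK1 substrate, from 62.4 ± 3.96 to 133 ± 8.09 CPM (1.08), and the kinase SGK3 by 0.74. NDRG2, the other NDRG substrate in the list, fell from 15.5 ± 1.20 to 7.51 ± 0.415 CPM (-0.96). In the S100 family of S100A4, 4 of 15 measured genes rose, 3 fell and 8 did not pass. The share called, 46.7%, was near the 46.8% of all genes. S100A10 (0.52), S100A2 (0.53), S100A11 (0.21) and S100A14 rose, the last at means of 0.0394 and 0.237 CPM, near the worth of 3 reads, and S100A3 (-0.48), S100A13 (-0.43) and S100A1 (-0.56) fell.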

How the data were processed

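Per the labels, the 8 libraries started from total RNA and were sequenced on an Illumina HiSeq machine. The submitters' processing notes name hg38 and edgeR; the aligner and counter of these libraries are not given in the sources used here, nor whether counting used strand. The deposited table holds CPM that the authors scaled by TMM, 1 column a library. Of its 21077 data lines, 18 Y copies of pseudoautosomal genes, identical to the X copies, were left out. Read counts were not used here: steps between low values gave each library's depth (about 9721650 to 12482500 reads), but only 72.0% to 73.3% of values were whole steps, so no count test was run. Intervals based on reads cover counting error only.

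limma 3.58.1 (R 4.3.3; lmFit, eBayes with trend) was fitted to log2(CPM + 1) of all genes, high minus low glucose, 2-sided, with Benjamini-Hochberg adjustment and no covariate. Fold changes on this scale understate those of low genes. The procedure was tested on simulated data. Alternatives were a pseudocount of 0.1, mean filters of 1 and 5 CPM, 3 other scalings and a replicate block. Further ones were removal of length or GC trends, and leaving out each library. Removal of the length trend within groups was added after the data were seen and cannot move a log2 change. Members and gene lists were chosen with earlier results of these data known. The 9 measured members are given in full. Of each wider list the 3 non-members of at least 1 CPM with the smallest adjusted p are named, plus genes needed for counts of 5 or fewer (1 gene that this rule names is not reported here); MAP2K3, AKAP13, FYN, HSPA4, LRRC8A, OXSR1, SGK3 and the genes whose call rests on high glucose replicate 1 were named after their values were seen. The 5 genes most like NFAT5 were taken by Pearson correlation over 8 libraries among genes of at least 5 CPM. Transcript lengths, shared words and exon overlaps came from GENCODE 44 canonical transcripts (20730 identifiers matched); positions and promoters came from RefSeq GRCh38.p14.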

Additional observations from a re-analysis of the deposited data

Results flagged for a closer look

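In 43 named genes, each of the 86 groups of 4 libraries was examined for a library far from the other 3, by the ratio of its gap to the group's range (against Dixon's 95% critical value). Chance gives about 1 in 20, or 4.3 of 86, and 7 were found, 5 of them in high glucose replicate 1. SLC6A6 in that library (180 CPM, ratio 0.879) lay below the other 3 (219 to 225 CPM), and so did HSPA4L (20.0 CPM, ratio 0.838; the others 25.1 to 26.1 CPM). ATP1B3 (635 CPM, ratio 0.830), IMPA1 (57.2 CPM, ratio 0.871) and NDRG1 (145 CPM, ratio 0.877) lay above the other 3 there. In low glucose replicate 1, S100A4 (25.3 CPM, ratio 0.838) and VEGFC (27.5 CPM, ratio 0.836) were the highest. NFAT5 in high glucose replicate 1, although the furthest of the members from its group on the log2 scale (-0.82), was not past the critical value, since the other 3 libraries were themselves spread from 241 to 273 CPM.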

How the results depend on the processing

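The members that rose numbered 5 or 6 under all 18 alternatives (5 to 6 when 1 library was left out), the genes called 8120 to 10772 (8899 to 10156) and the wider genes called 59 to 75 (61 to 67). SLC5A3, SLC6A6, SLC38A2, HSPA4L and SGK1 kept their call and direction under every alternative run, with log2 changes of 0.41 to 0.56, 0.98 to 1.16, 1.0 to 1.20, 1.36 to 1.55 and 1.16 to 1.26. NFAT5 ranged from 0.61 to 0.92, with adjusted p from 3.64e-05 to 0.0536. Members that had not passed did not pass under any alternative, but 3 turned sign around 0, and the cause was not tested. AKR1B1 was 0.032 with median-of-ratios scaling, 0.015 with equal totals, 0.097 and 0.086 with the length or GC trend removed, and -0.11 to 0.063 when 1 library was left out (0.040 and 0.063 without high glucose replicate 3 or 4). SORD was 0.018, 0.00099 and 0.059 with median-of-ratios, equal-total and quantile scaling, and -0.060 to 0.030 when 1 library was left out (0.030 and 0.022 without low or high glucose replicate 3). S100A4 was -0.051 to 0.21 when 1 library was left out, negative only without high glucose replicate 1, and KHK -0.089 to 0.17, negative without low glucose replicate 3 (-0.089) or high glucose replicate 1 (-0.018). MED1 lost its call under quantile scaling and 7 of the 8 leave-outs, FOXN3 and S100A11 under quantile scaling, and NFATC1 passed under 3 alternatives. Deviations from the group mean correlated by -0.04 to 0.07 between same-numbered libraries and by -0.14 to 0.07 between other pairs. Whether the numbers mark a shared source is not given by the labels and cannot be decided from these correlations. With the replicate number as a block 8921 genes were called, 6 members rose, the wider lists had 60 calls, NFAT5 had an adjusted p of 0.0298, and NFATC3 lost its call (0.0560). The median change of genes of at least 1 CPM was -0.04, and between -0.019 and -0.0029 under the 3 other scalings. SLC6A12 could not be run. Depth limits genes near 1 read, since 3 reads are worth 0.212 to 0.267 CPM.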
